A study of Mus musculus with 8 samples.

Results

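The 36 genes described here encode the enzymes that turn threonine, serine and glycine into one-carbon units and that build purines, pyrimidines, S-adenosylmethionine and polyamines. They were chosen by name, as a list of enzymes of these pathways, and all 36 were found among the 19896 Ensembl gene IDs that both deposited tables share. Their transcripts were read by poly(A) RNA sequencing in 8 libraries, 4 groups of 2, of the mouse embryonic stem cell line E14.

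One-carbon units are single carbon atoms carried on folate, and purine rings, thymidylate and the methyl group of S-adenosylmethionine all take carbon from that pool. Mouse embryonic stem cells are known for feeding the pool from threonine through the mitochondrial dehydrogenase TDH, and for stopping growth when threonine is withdrawn. Purine nucleotides can be built on phosphoribosyl pyrophosphate (PRPP) along the long route to inosine monophosphate (IMP), or salvaged from free bases in a single step by HPRT and APRT. Polyamines are made from ornithine, and they draw on S-adenosylmethionine, so the last branch shares a substrate with methylation.

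Cct7 KD cells held a short hairpin RNA to Cct7, switched on by doxycycline, in a pLKO-Tet-on-puro vector, and Cct7 KD Ctr cells carried that vector empty. Cct5 KD cells held a hairpin to Cct5 in the same vector, with empty-vector Cct5 KD Ctr cells of their own. Cct5 and Cct7 encode subunits of the chaperonin CCT, also named TRiC, a double ring in which newly made actin and tubulin fold. All 4 groups, controls included, had been kept in puromycin (0.5 µg/ml, 14 days) with positive clones then picked, had a 2-day exposure to doxycycline at 2 µg/ml, and grew mainly in serum with LIF. The labels give neither the number of clones behind a group nor whether its 2 libraries came from separate cultures, so that p-values measure the spread between libraries, which may be technical. Values are FPKM (fragment counts divided by transcript length and by library total) as deposited by the authors, and a level is therefore per length and can be compared between genes. A log2 change is the difference in log2(FPKM + 1) from limma, which understates changes of genes near 0, and a gene changed where the Benjamini-Hochberg adjusted p over all genes tested was under 0.05.

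The step size of low values put the depth of 6 libraries between 18.9 and 54.7 M fragments (M, 1e6), and none could be read for the Cct5 KD libraries. Cct7 itself had 14.4 and 17.8 FPKM in Cct7 KD, against 269 and 280.1 FPKM in Cct7 KD Ctr, and Cct5 had 70.8 and 73.4 FPKM in Cct5 KD, against 368 and 367 FPKM in Cct5 KD Ctr. For 19881 of the 19896 IDs, all 36 enzymes included, a Cct5 KD value was made up of 1.125 times its same-numbered Cct7 KD value and a remainder that was never negative. The 2 knockdowns are therefore not independent, and the remainder, 28.7% of the summed FPKM of Cct5 KD, is given beside the Cct5 KD values. In the remainder the step of low values could be read, at 55.9 and 52.8 M fragments, with 99.0% and 99.1% of the values compared being whole. In Cct5 KD as deposited, at most 68.8% and 50.2% were whole. How the Cct5 KD values came about was not tested. The spread between the 2 Cct5 KD libraries, on which its p-values rest, likewise contains that of the Cct7 KD libraries. Cct5 itself was among the 15 IDs outside this relation, with 280 and 271 FPKM in Cct7 KD. Cct7 lay inside it, with 93.9% of its mean Cct5 KD value in the remainder. Summed FPKM was 474013 and 472908 in Cct7 KD, 491202 and 497897 in Cct7 KD Ctr, 749001 and 747293 in Cct5 KD, and 496507 and 497663 in Cct5 KD Ctr. All 10 pluripotency markers listed for the check were above 1 FPKM in each group, and their summed FPKM was 1045 to 1054 in Cct7 KD, against 4559 to 4766 in Cct7 KD Ctr. Of the markers of other lineages, 7 trophoblast genes (Tpbpa was not listed) summed to 209 to 211 FPKM in Cct7 KD, against 27.6 to 29.0 in Cct7 KD Ctr. Nearly all of that sum was the keratins Krt8 and Krt18, with means of 106 and 101 FPKM in Cct7 KD, while Eomes was lower (0.987 FPKM in Cct7 KD, against 1.55 in Cct7 KD Ctr), and Gata3, Cdx2 and Elf5 were under 1 FPKM in both groups. The 8 primitive endoderm genes summed to 24.7 to 25.3 FPKM in Cct7 KD, against 17.4 to 17.6 in Cct7 KD Ctr. Most of that sum was Col4a1, with means of 15.6 FPKM in Cct7 KD and 12.4 in Cct7 KD Ctr. The 5 fibroblast genes with a value (Dcn, Lum and Col3a1 were not listed for Cct7 KD) summed to 12.03 to 12.6 FPKM in Cct7 KD, against 10.3 to 11.1 in Cct7 KD Ctr, with Pdgfrb higher and Thy1 lower. These marker sums separate the same libraries as each result below, and their part in the results was not tested.

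Of the 36 enzymes, 32 have a promoter window in the RefSeq table used (250 bases before to 50 after the annotated start, assembly GRCm38.p6), and Tdh, Pfas, Dhodh and Srm have none there. Promoters are shown for the enzyme that fell the most (Hprt), for the neighbouring pair Paics and Ppat, and for 3 further genes with a palindromic E-box, the letters CACGTG, which is bound by MYC with MAX and by other factors of that class. The E-box is in capitals, and each sequence is written 5′ to 3′ in the direction of its own gene.
Hprt promoter, chrX:52987828-52988127, plus strand: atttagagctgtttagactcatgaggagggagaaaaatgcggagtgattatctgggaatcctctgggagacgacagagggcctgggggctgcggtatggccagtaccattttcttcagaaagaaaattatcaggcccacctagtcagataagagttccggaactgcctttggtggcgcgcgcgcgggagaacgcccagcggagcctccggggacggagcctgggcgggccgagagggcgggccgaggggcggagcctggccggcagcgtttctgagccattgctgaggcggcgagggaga
Paics promoter, chr5:76951052-76951351, plus strand: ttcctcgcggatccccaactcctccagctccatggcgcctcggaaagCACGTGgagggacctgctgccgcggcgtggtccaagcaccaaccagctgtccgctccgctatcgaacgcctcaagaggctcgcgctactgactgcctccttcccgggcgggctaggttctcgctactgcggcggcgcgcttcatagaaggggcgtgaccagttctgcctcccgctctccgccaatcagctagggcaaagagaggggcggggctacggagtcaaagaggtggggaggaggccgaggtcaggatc
Ppat promoter, chr5:76951529-76951828, minus strand: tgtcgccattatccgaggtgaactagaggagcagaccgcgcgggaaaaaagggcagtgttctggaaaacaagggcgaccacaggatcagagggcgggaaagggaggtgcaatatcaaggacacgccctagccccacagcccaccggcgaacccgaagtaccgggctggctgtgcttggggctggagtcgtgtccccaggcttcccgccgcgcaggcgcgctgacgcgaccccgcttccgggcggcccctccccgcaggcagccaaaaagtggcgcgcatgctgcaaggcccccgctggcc
Atic promoter, chr1:71556906-71557205, plus strand: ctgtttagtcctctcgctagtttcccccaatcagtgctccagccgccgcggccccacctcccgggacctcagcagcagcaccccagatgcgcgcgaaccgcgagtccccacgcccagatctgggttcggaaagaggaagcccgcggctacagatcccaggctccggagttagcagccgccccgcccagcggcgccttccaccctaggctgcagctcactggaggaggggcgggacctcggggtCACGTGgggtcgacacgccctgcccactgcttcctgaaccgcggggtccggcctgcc
Impdh2 promoter, chr9:108560186-108560485, plus strand: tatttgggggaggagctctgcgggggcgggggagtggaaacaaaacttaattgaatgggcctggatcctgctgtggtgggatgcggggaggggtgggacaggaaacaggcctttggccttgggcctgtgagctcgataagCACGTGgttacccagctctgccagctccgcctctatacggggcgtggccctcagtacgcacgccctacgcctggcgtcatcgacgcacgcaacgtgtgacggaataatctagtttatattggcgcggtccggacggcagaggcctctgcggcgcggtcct
Tyms promoter, chr5:30073576-30073875, minus strand: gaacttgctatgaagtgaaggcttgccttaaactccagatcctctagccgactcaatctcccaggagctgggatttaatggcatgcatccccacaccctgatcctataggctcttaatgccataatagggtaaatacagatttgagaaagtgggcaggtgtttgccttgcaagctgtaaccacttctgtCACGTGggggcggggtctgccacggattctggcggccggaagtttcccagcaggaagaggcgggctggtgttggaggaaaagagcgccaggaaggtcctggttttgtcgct

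Searched on both strands, CACGTG occurred in 6 of the 32 windows (18.8%), those of Gcat, Paics, Atic, Impdh2, Tyms and Sms, against 8.09% of 27025 genes with a window. In Atic the E-box begins 7 bases before the start, in Tyms 61, in Impdh2 110 and in Paics 203. Of the windows of enzymes that fell in Cct7 KD, 4 of 24 held it, and of those that rose, 1 of 5. The GC box GGGCGG was found in 28 of the 32 windows (87.5%), against 38.2% of genes, and CCAAT in 15 (46.9%), against 41.1%. The core of the amino acid response element, TGATGNAA, was found in 1 window, that of Prps1 (3.13%), against 4.51% of genes. A match describes these letters in this window only. An enzyme or gene counts if any of its windows holds the letters. The shares of genes are over all 27025 with a window, expressed or not. No share over expressed genes was taken, so these contrasts do not set the enzymes apart from other expressed genes.

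In Cct7 KD most of these enzymes were lower. Among the 36, 28 fell, 5 rose and 3 did not pass the test, where of the 13588 genes tested 32.0% fell and 49.3% rose. Their median log2 change was -0.57, against 0.15 for all genes tested. At least 2-fold falls on the log2(FPKM + 1) scale numbered 9, against 6.60% of all genes, and no enzyme rose that far, against 13.5% of all genes. Both knockdown libraries lay below both controls for 29 of the 36 and above both for 7, with no overlap for any of them, against 36.5% below and 54.1% above among all genes tested. All 36 passed the filter of a mean of 1 FPKM, Hprt through its level in the controls alone. In a bulk sample, fewer cells of a type and less RNA per cell cannot be told apart.

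Because the median gene was itself shifted upward by 0.15, the same fit was made after median-of-ratios scaling, which brings the median gene to -0.07. On that scale 32 of the enzymes fell and 2 rose, Impdh1 and Tyms, with a median of -0.82, where 44.0% of all genes fell and 37.1% rose. Scaling to a common FPKM total gave 27 falls and 6 rises, where 29.2% of all genes fell and 52.6% rose. The plot of the 36 changes by pathway shows both scales.

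**Figure D1:**
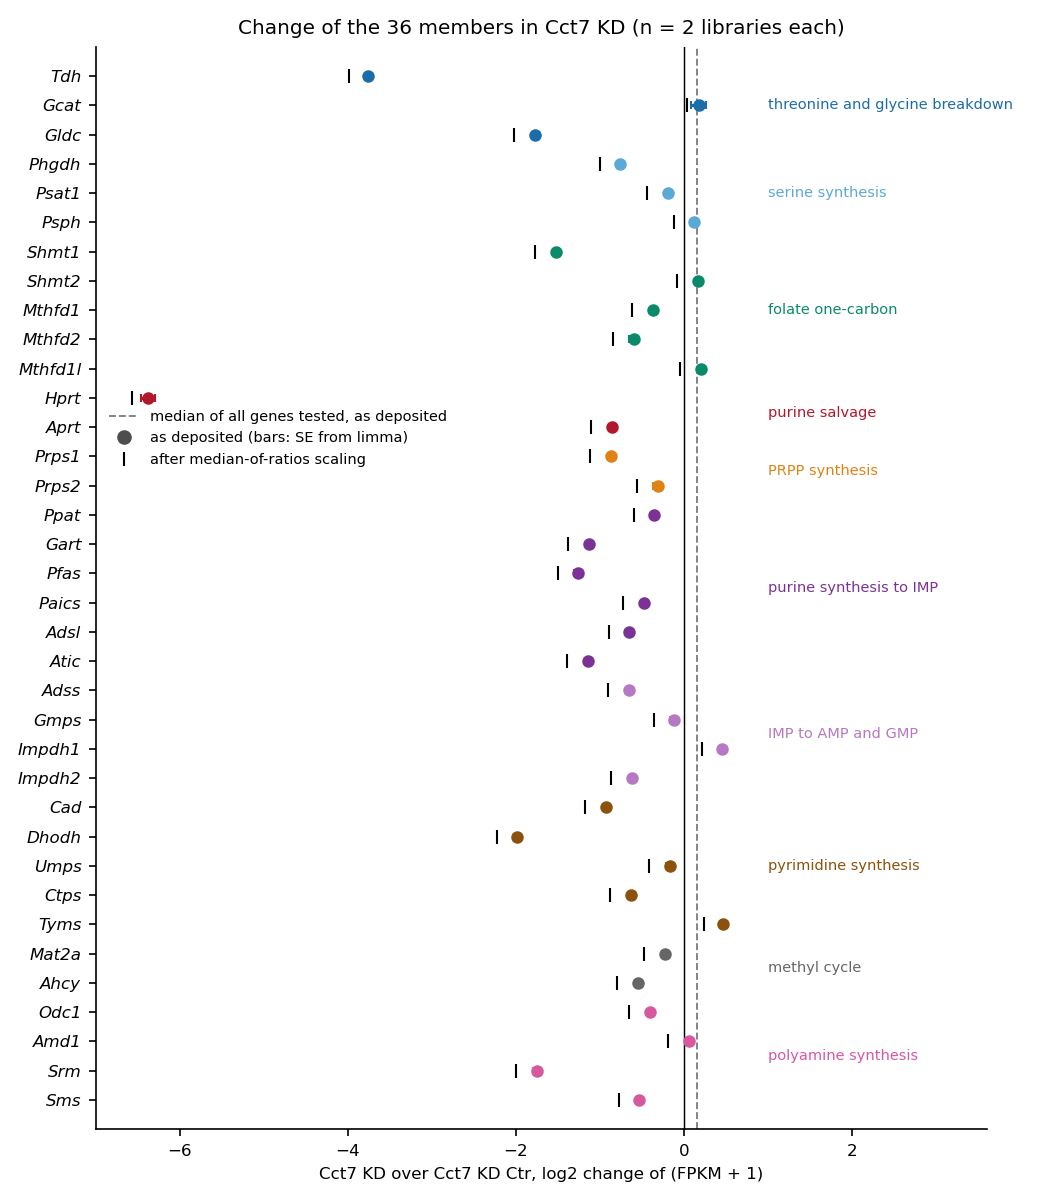
Log2 change of FPKM + 1 in Cct7 KD over Cct7 KD Ctr for the 36 enzymes, grouped and coloured by pathway, with n = 2 libraries per group. Filled circles are values as deposited with the SE from limma, short bars the values after median-of-ratios scaling, and the dashed line the median of all genes tested (0.15); Hprt and Tdh lie farthest left, and of the 7 circles right of 0, 5 are enzymes that rose by the test.

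Outside of Hprt, the deepest loss of transcript was in threonine and glycine breakdown. Tdh, threonine dehydrogenase (ENSMUSG00000021953, chr14:63492347-63509092, minus strand, GRCm38, GENCODE), had 7.57 and 8.19 FPKM in Cct7 KD, against 118 and 119.6 FPKM in Cct7 KD Ctr, which is 6.62% of the control mean. Both knockdown libraries were far below both controls (log2 change -3.76, SE 0.042, adjusted p = 7.8e-07 by limma), and the level of Tdh exceeded 44.5% of genes of at least 1 FPKM in Cct7 KD, against 95.5% in Cct7 KD Ctr. Gldc (chr19:30098447-30175429), the decarboxylase of the mitochondrial glycine cleavage system, had 31.7 and 31.4 FPKM in Cct7 KD, against 109.7 and 111 FPKM in Cct7 KD Ctr. The libraries of the 2 groups did not overlap, and Gldc was 3.49-fold lower by its means (log2 change -1.77, SE 0.026, adjusted p = 1.2e-06 by limma). Gcat, which splits the product of TDH into glycine and acetyl-CoA, was near the detection filter at 1.38 and 1.25 FPKM in Cct7 KD, against 1.06 and 1.05 FPKM in Cct7 KD Ctr, and did not pass the test (log2 change 0.17, SE 0.086, adjusted p = 0.11 by limma). The 2 steps of this route therefore stood at very different levels in the controls.

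The enzymes of serine synthesis changed less and unevenly, with 2 lower and 1 higher, where 32.0% of all genes tested fell and 49.3% rose. Phgdh, which commits the glycolytic intermediate 3-phosphoglycerate to serine, had 46.7 and 47.2 FPKM in Cct7 KD, against 79.8 and 80.5 FPKM in Cct7 KD Ctr. The 2 knockdown libraries were both at about the same level, below the controls (log2 change -0.76, SE 0.025, adjusted p = 6.2e-06 by limma). Psat1, the aminotransferase of the next step and the most abundant of the 36 transcripts, had 402 and 408 FPKM in Cct7 KD, against 469.7 and 454 FPKM in Cct7 KD Ctr, a smaller fall (log2 change -0.19, SE 0.03, adjusted p = 0.0021 by limma) that left it above 99.0% of genes in both groups. Psph, the phosphatase that releases serine, had 21.6 and 21.7 FPKM in Cct7 KD, against 19.4 and 20.4 FPKM in Cct7 KD Ctr. Psph rose as deposited (log2 change 0.12, SE 0.039, adjusted p = 0.035 by limma), but its change of 0.12 is below that of the median gene, and after median-of-ratios scaling it was lower (-0.12). Without Cct7 KD Ctr replicate 1, Cct7 KD replicate 1 or Cct7 KD replicate 2, Psph did not pass.

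Among the folate enzymes, the cytosolic and the mitochondrial serine hydroxymethyltransferases parted. Shmt1 (chr11:60788104-60811718), the cytosolic enzyme that moves the serine side-chain carbon to folate, had 27.4 and 27.8 FPKM in Cct7 KD, against 80.6 and 82.0 FPKM in Cct7 KD Ctr. It was at 34.0% of its control (log2 change -1.52, SE 0.028, adjusted p = 1.6e-06 by limma), with no overlap of the groups. Shmt2, the mitochondrial form, had 66.6 and 65.6 FPKM in Cct7 KD, against 58.1 and 59.4 FPKM in Cct7 KD Ctr (log2 change 0.17, SE 0.027, adjusted p = 0.0022 by limma), a rise near the shift of the median gene that turned to -0.08 after median-of-ratios scaling. Taken within a library, where scaling has no effect, the ratio of Shmt2 to Shmt1 was 2.43 and 2.36 in Cct7 KD, against 0.721 and 0.725 in Cct7 KD Ctr. Shmt1 was thus the more abundant transcript in both control libraries and Shmt2 in both knockdown libraries. Gldc, which also feeds the mitochondrial pool, went the other way against Shmt2: the ratio of Gldc to Shmt2 was 0.476 and 0.478 in Cct7 KD, against 1.89 and 1.86 in Cct7 KD Ctr.

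The dehydrogenases and synthetases that interconvert folate-bound carbon moved by smaller amounts. Mthfd2, the mitochondrial methylenetetrahydrofolate dehydrogenase, had 123 and 137 FPKM in Cct7 KD, against 195 and 199.6 FPKM in Cct7 KD Ctr (log2 change -0.60, SE 0.054, adjusted p = 1.9e-04 by limma). Mthfd1, the cytosolic trifunctional enzyme, had 79.7 and 78.5 FPKM in Cct7 KD, against 102 and 103 FPKM in Cct7 KD Ctr (log2 change -0.37, SE 0.025, adjusted p = 6.1e-05 by limma). Both fell, and in neither did the groups overlap. Mthfd1l, which releases formate from mitochondria, had 35.0 and 33.7 FPKM in Cct7 KD, against 29.8 and 29.8 FPKM in Cct7 KD Ctr and rose (log2 change 0.20, SE 0.032, adjusted p = 0.0022 by limma), but was at -0.05 after median-of-ratios scaling, where it did not pass (adjusted p = 0.26 by limma). Within libraries, the ratio of Mthfd1l to Mthfd1 was 0.440 and 0.430 in Cct7 KD, against 0.293 and 0.289 in Cct7 KD Ctr. The summed FPKM of the 5 folate enzymes was 332 and 343 in Cct7 KD, against 466 and 474 in Cct7 KD Ctr, and that of the 3 serine enzymes 470.1 and 477 in Cct7 KD, against 569 and 554 in Cct7 KD Ctr.

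Transcripts of both purine salvage enzymes fell, that of Hprt almost completely. Hprt, which salvages hypoxanthine and guanine (ENSMUSG00000025630, chrX:52988137-53021659, plus strand), had 1.12 and 0.781 FPKM in Cct7 KD, against 161 and 161 FPKM in Cct7 KD Ctr. It was at 0.589% of its control (log2 change -6.38, SE 0.084, adjusted p = 1.1e-06 by limma), and its mean was under 1 FPKM in Cct7 KD, while in Cct7 KD Ctr it exceeded 96.8% of genes of at least 1 FPKM. Aprt, the salvage enzyme for adenine, had 52.4 and 55.5 FPKM in Cct7 KD, against 97.5 and 99.8 FPKM in Cct7 KD Ctr, or 54.7% of its control (log2 change -0.86, SE 0.036, adjusted p = 1.2e-05 by limma). The drop in Hprt therefore exceeded that of Aprt by far, and the ratio of Hprt to Aprt was 0.0214 and 0.0141 in Cct7 KD, against 1.66 and 1.62 in Cct7 KD Ctr.

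None of the flanking genes with a value fell as far as Hprt. Of the 3 protein-coding genes on either side in the annotation, Phf6, the nearest upstream, had 14.5 and 14.9 FPKM in Cct7 KD, against 13.4 and 12.7 FPKM in Cct7 KD Ctr, and Ccdc160 had 5.11 and 4.58 FPKM in Cct7 KD, against 4.28 and 4.91 FPKM in Cct7 KD Ctr. Farther upstream, Gpc3 fell (16.6 ± 1.09 FPKM in Cct7 KD, against 33.7 ± 1.08 in Cct7 KD Ctr, SD, n = 2 each), and downstream Fam122b rose (49.8 ± 0.877 FPKM in Cct7 KD, against 13.9 ± 0.211 in Cct7 KD Ctr, log2 change 1.77). Phf6 passed as higher (0.16) and Ccdc160 did not pass; with median-of-ratios scaling neither passed (log2 changes -0.07 and -0.14). Plac1 was under the filter, and Fam122c was not listed. The other 3 X-linked enzymes, Prps1, Prps2 and Sms, fell by 0.88, 0.32 and 0.54 on the log2 scale. As background, E14Tg2a and the sublines made from it carry a deletion in Hprt, while the E14 cells they came from did not; the labels name E14 for all 8 libraries and give no subline. Whether knockdown and control cells came from 1 subline is not stated there, so an effect of the hairpins on Hprt and a difference between the starting cells cannot be told apart, and that holds for every other knockdown result.

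Enzymes that make PRPP, the sugar donor for both salvage and synthesis, fell too. Prps1 had 44.2 and 43.3 FPKM in Cct7 KD, against 81.8 and 80.3 FPKM in Cct7 KD Ctr (log2 change -0.88, SE 0.027, adjusted p = 5.4e-06 by limma), and Prps2 had 22.2 and 20.5 FPKM in Cct7 KD, against 27.4 and 26.2 FPKM in Cct7 KD Ctr (log2 change -0.32, SE 0.05, adjusted p = 0.002 by limma). Both were below their controls in both libraries, Prps1 by the larger amount, so that Prps2 made up 33.5% and 32.1% of the pair in Cct7 KD, against 25.1% and 24.6% in Cct7 KD Ctr. Prps1l3, a gene of near-identical sequence, was at 34.2 ± 0.421 FPKM in Cct7 KD, against 34.8 ± 1.51 in Cct7 KD Ctr (SD, n = 2 each, not passed), and how the counting divided reads between it and Prps1 is not given, so both levels are uncertain.

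All 6 enzymes that build IMP fell in Cct7 KD, where 32.0% of all genes tested fell. Their median log2 change was -0.89, against 0.15 for all genes tested. Ppat, the amidotransferase that opens the route, had 35.8 and 36.8 FPKM in Cct7 KD, against 46.2 and 47.2 FPKM in Cct7 KD Ctr (log2 change -0.35, SE 0.03, adjusted p = 1.4e-04 by limma). Gart (chr16:91621186-91646952), a trifunctional enzyme of the following steps, had 72.8 and 76.1 FPKM in Cct7 KD, against 164 and 165 FPKM in Cct7 KD Ctr (log2 change -1.14, SE 0.031, adjusted p = 3.8e-06 by limma). The first step thus kept 77.7% of its control level and the next 45.2%, with no overlap between groups in either gene. Pfas (chr11:68985697-69008460), which adds the second glutamine nitrogen, had 16.3 and 17.0 FPKM in Cct7 KD, against 42.6 and 40.2 FPKM in Cct7 KD Ctr (log2 change -1.26, SE 0.042, adjusted p = 6.2e-06 by limma). Paics, a bifunctional carboxylase and synthetase, had 178 and 178 FPKM in Cct7 KD, against 245 and 251 FPKM in Cct7 KD Ctr (log2 change -0.48, SE 0.025, adjusted p = 2.6e-05 by limma). Pfas showed the largest fall of the 6, to 40.2% of its control, and Paics one of the smaller ones, to 71.8%.

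Adsl, a lyase used on this route and again on the way to AMP, had 18.8 and 19.2 FPKM in Cct7 KD, against 30.2 and 30.7 FPKM in Cct7 KD Ctr (log2 change -0.65, SE 0.032, adjusted p = 2.0e-05 by limma). Atic (chr1:71557150-71579631), which closes the ring to IMP and takes its carbon from formyl-folate, had 44.4 and 44.6 FPKM in Cct7 KD, against 98.9 and 101 FPKM in Cct7 KD Ctr (log2 change -1.15, SE 0.026, adjusted p = 2.6e-06 by limma). Atic stood at 44.5% of its control and Adsl at 62.5%, again without overlap. The ratio of Adsl to Gart was accordingly 0.259 and 0.252 in Cct7 KD, against 0.184 and 0.185 in Cct7 KD Ctr. Ppat and Paics are transcribed away from each other and their annotated 5′ ends overlap by 272 bases on chromosome 5. The library kit marks strand, but no source used here says whether the counting used it, so reads from the overlap may not be told apart.

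Set beside each other, the summed transcripts of purine salvage and of purine synthesis both fell, to unequal extents. The summed FPKM of the 6 enzymes up to IMP was 366 and 371 in Cct7 KD, against 627 and 635 in Cct7 KD Ctr, which is 58.5% of the control. Hprt and Aprt together summed to 53.5 and 56.3 FPKM in Cct7 KD, against 259 and 261 in Cct7 KD Ctr, or 21.1%. That lower share came from Hprt, since Aprt alone was at 54.7% of its control, near the share of the synthesis enzymes. For Hprt, an effect of the hairpins and a difference between the starting cells cannot be told apart, as given above. Expressed against the 6 synthesis enzymes of the same library, Hprt was 0.306% and 0.210% in Cct7 KD, against 25.7% and 25.4% in Cct7 KD Ctr. None of the 6 synthesis enzymes was higher in Cct7 KD, as the plot of purine transcripts by library shows.

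**Figure D2:**
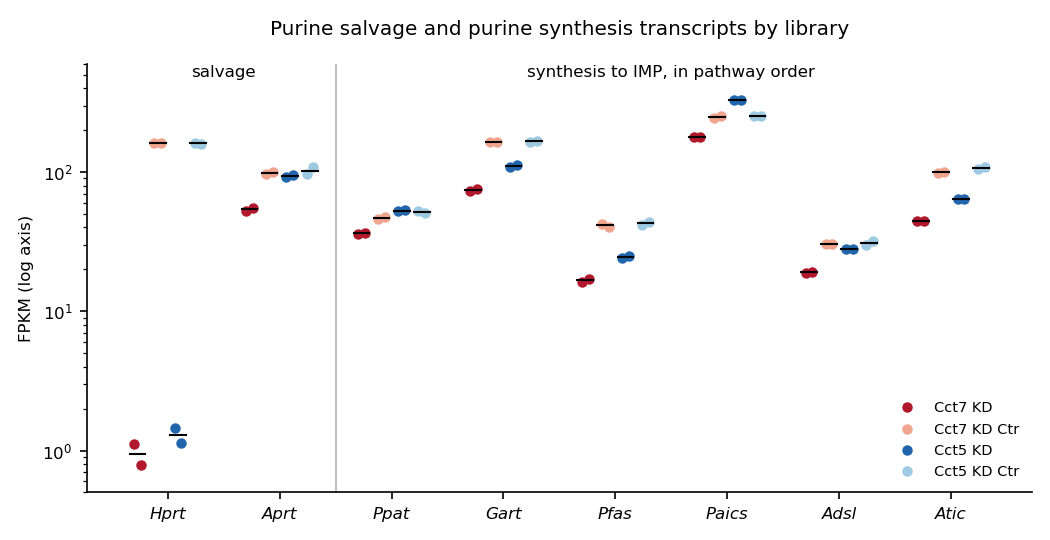
FPKM on a log axis of the 2 salvage and 6 synthesis transcripts in each library, with points for libraries and bars for group means (n = 2). The 4 knockdown libraries hold 0.781 to 1.44 FPKM of Hprt, the 4 controls 159 to 163, while the 6 synthesis transcripts lie at 40.2% to 77.7% of control in Cct7 KD and at 57.3% to 132% in Cct5 KD.

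Past IMP, the genes of the 2 IMP dehydrogenases on the branch to GMP moved in opposite directions. Impdh2, the main IMP dehydrogenase of dividing cells, had 164 and 160.3 FPKM in Cct7 KD, against 245 and 254 FPKM in Cct7 KD Ctr (log2 change -0.62, SE 0.03, adjusted p = 1.8e-05 by limma). Impdh1, the other gene for this step, had 24.5 and 23.5 FPKM in Cct7 KD, against 16.9 and 17.7 FPKM in Cct7 KD Ctr (log2 change 0.46, SE 0.041, adjusted p = 1.8e-04 by limma) and stayed higher after median-of-ratios scaling (0.22). Impdh2 fell while Impdh1 rose, without overlap in either. Impdh1 made up 13.0% and 12.8% of the pair in Cct7 KD, against 6.43% and 6.50% in Cct7 KD Ctr. Adss, on the branch to AMP, had 71.6 and 69.2 FPKM in Cct7 KD, against 110.0 and 113 FPKM in Cct7 KD Ctr (log2 change -0.66, SE 0.031, adjusted p = 1.7e-05 by limma). Gmps, which makes GMP, had 21.6 and 20.04 FPKM in Cct7 KD, against 22.4 and 22.9 FPKM in Cct7 KD Ctr and did not pass (log2 change -0.12, SE 0.046, adjusted p = 0.062 by limma), although both knockdown values were under both controls. A pseudogene of Impdh2 was at 1.16 ± 0.0372 FPKM in Cct7 KD, against 2.03 ± 0.461 in Cct7 KD Ctr (SD, n = 2 each), and may share reads with it.

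Among the transcripts of pyrimidine synthesis, that of the mitochondrial step fell most. Dhodh (chr8:109591343-109608673), dihydroorotate dehydrogenase of the inner mitochondrial membrane, had 9.25 and 8.75 FPKM in Cct7 KD, against 38.4 and 38.9 FPKM in Cct7 KD Ctr. It was 4.30-fold lower by its means with no overlap (log2 change -1.99, SE 0.04, adjusted p = 1.9e-06 by limma). Cad, which carries the steps before it, had 34.9 and 35.0 FPKM in Cct7 KD, against 68.6 and 66.8 FPKM in Cct7 KD Ctr (log2 change -0.93, SE 0.028, adjusted p = 5.0e-06 by limma), and Umps, which carries those after it, had 35.0 and 34.6 FPKM in Cct7 KD, against 37.7 and 40.8 FPKM in Cct7 KD Ctr (log2 change -0.17, SE 0.044, adjusted p = 0.015 by limma). Umps passed narrowly: without Cct7 KD replicate 2 its adjusted p was 0.062, and it was 0.052 with libraries scaled to a common total, by limma. Ctps, CTP synthase, had 47.6 and 50.6 FPKM in Cct7 KD, against 76.1 and 76.9 FPKM in Cct7 KD Ctr (log2 change -0.63, SE 0.037, adjusted p = 3.4e-05 by limma). Tyms, thymidylate synthase, which uses methylene-folate, went the other way with 17.5 and 16.8 FPKM in Cct7 KD, against 12.1 and 12.1 FPKM in Cct7 KD Ctr (log2 change 0.47, SE 0.039, adjusted p = 1.4e-04 by limma). Tyms was higher in both knockdown libraries, and it stayed higher after median-of-ratios scaling (0.23).

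The enzymes of the methyl cycle fell moderately. Mat2a, which makes S-adenosylmethionine, had 101 and 105 FPKM in Cct7 KD, against 120.4 and 122 FPKM in Cct7 KD Ctr (log2 change -0.23, SE 0.03, adjusted p = 8.5e-04 by limma). Ahcy, which clears the product of methylation, had 39.8 and 39.1 FPKM in Cct7 KD, against 57.2 and 59.1 FPKM in Cct7 KD Ctr (log2 change -0.55, SE 0.03, adjusted p = 2.9e-05 by limma). Both pairs of libraries were apart, and the fall was the larger in Ahcy.

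In polyamine synthesis the step to spermidine stood out. Srm (chr4:148591503-148594993), spermidine synthase, had 24.6 and 25.6 FPKM in Cct7 KD, against 83.7 and 90.5 FPKM in Cct7 KD Ctr, or 28.8% of its control (log2 change -1.75, SE 0.046, adjusted p = 3.5e-06 by limma). Sms, spermine synthase, had 22.6 and 21.9 FPKM in Cct7 KD, against 32.2 and 33.1 FPKM in Cct7 KD Ctr (log2 change -0.54, SE 0.035, adjusted p = 5.0e-05 by limma). Both fell without overlap, Srm by far the more, and the ratio of Srm to Sms was 1.09 and 1.17 in Cct7 KD, against 2.60 and 2.73 in Cct7 KD Ctr. Odc1, ornithine decarboxylase, had 223 and 228 FPKM in Cct7 KD, against 297 and 299 FPKM in Cct7 KD Ctr (log2 change -0.40, SE 0.026, adjusted p = 5.1e-05 by limma), a fall that left it above 98.2% of genes. Amd1, which decarboxylates S-adenosylmethionine, had 64.1 and 60.6 FPKM in Cct7 KD, against 60.5 and 59.1 FPKM in Cct7 KD Ctr and did not pass (log2 change 0.06, SE 0.036, adjusted p = 0.18 by limma). Against Oaz2, an antizyme that holds ODC in check and which was added to these ratios with its values known, Odc1 stood at 1.46 and 1.52 in Cct7 KD, against 4.08 and 3.75 in Cct7 KD Ctr. This ratio was at 0.380 times its control and Odc1 alone at 75.7% of its control. As deposited, the larger part of the shift was therefore a higher Oaz2. No ratio to another antizyme was formed. Amd2, a copy of Amd1, and a pseudogene of Sms may take reads of these genes; Amd2 was at 5.56 ± 0.599 FPKM in Cct7 KD, against 4.57 ± 0.0573 in Cct7 KD Ctr (SD, n = 2 each).

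**Figure D3:**
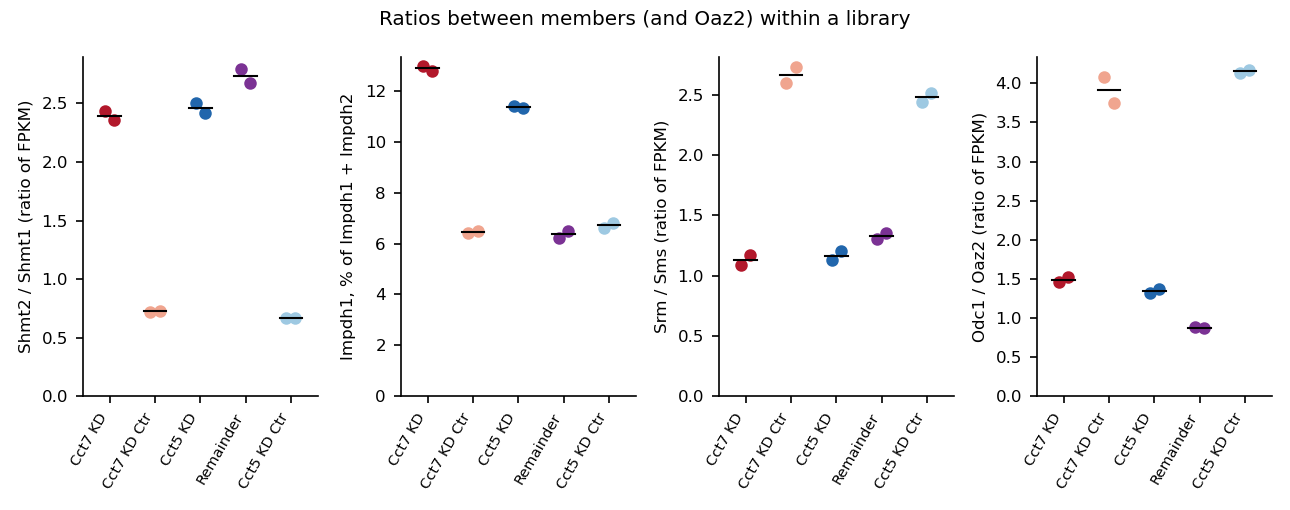
Ratios of FPKM within a library, with points for libraries and bars for group means (n = 2), for Cct7 KD, Cct7 KD Ctr, Cct5 KD, the remainder of Cct5 KD after its multiple of Cct7 KD is taken off, and Cct5 KD Ctr. Shmt2 over Shmt1 is at least 2.36 in each knockdown library and at most 0.725 in each control, Srm over Sms and Odc1 over Oaz2 are lower in each knockdown library, and the Impdh1 share is higher in Cct7 KD and Cct5 KD but not in the remainder.

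The other genes of these pathways are set beside all genes tested in Cct7 KD, of which 49.3% rose and 32.0% fell. Of 19 further one-carbon genes tested, 9 rose, 6 fell and 4 did not pass, with a median of 0.02, near the shares over all genes. Gcsh, the lipoyl carrier of the glycine cleavage system, fell together with its partner Gldc, at 41.6 ± 0.748 FPKM in Cct7 KD, against 130.1 ± 0.197 in Cct7 KD Ctr (SD, n = 2 each, log2 change -1.62). Fpgs, which adds the glutamate tail that keeps folate in the cell, fell by 0.90, and Ggh, which removes that tail, rose by 1.45 on the log2 scale. Aldh1l2, the mitochondrial formyl-folate dehydrogenase, was at 3.92 ± 0.220 FPKM in Cct7 KD, against 0.341 ± 0.000184 in Cct7 KD Ctr. Of 8 further methyl-cycle genes, 2 rose, 4 fell and 2 did not pass (median -0.21): Cbs, which takes homocysteine to cystathionine, fell by 1.55, Mat2b, the regulatory partner of MAT2A, by 1.32, and Ahcyl2 rose by 0.74. The other that rose, Ahcyl1 (0.09), was at -0.15 after median-of-ratios scaling. With no filter on low values 4 methyl-cycle genes rose, and 1 rose when Cct7 KD Ctr replicate 2 or either Cct7 KD library was left out. Aldh1l2 was under 1 FPKM in the controls and Cbs in Cct7 KD, so each entered the test through its other group alone.

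Of 20 further purine genes tested, 8 rose, 9 fell and 3 did not pass (median -0.01), again beside 49.3% and 32.0% of all genes, as for the 2 lists that follow. Guk1, guanylate kinase, was at 21.7 ± 0.472 FPKM in Cct7 KD, against 51.8 ± 1.49 in Cct7 KD Ctr (log2 change -1.22), and Dguok, the mitochondrial deoxyguanosine kinase, fell by 0.78. Nt5e, the cell-surface nucleotidase CD73, was at 6.27 ± 0.523 FPKM in Cct7 KD, against 0.269 ± 0.0157 in Cct7 KD Ctr (log2 change 2.52), and Itpa, which clears inosine triphosphate, rose by 0.83. Of 20 further pyrimidine genes, 8 rose, 10 fell and 2 did not pass (median -0.11). Dpys, dihydropyrimidinase, and Dctd, dCMP deaminase, fell by 2.49 and 1.59, and Cda, cytidine deaminase, and Rrm2b, the p53-inducible ribonucleotide reductase subunit, rose by 1.88 and 1.07. Nt5e and Cda were under 1 FPKM in the controls and Dpys in Cct7 KD, and these too entered the test through the other group alone. Of 19 further polyamine genes, 8 rose, 10 fell and 1 did not pass (median -0.10). Eif5a, the protein that carries hypusine made from spermidine, was at 347 ± 0.223 FPKM in Cct7 KD, against 778 ± 9.24 in Cct7 KD Ctr (log2 change -1.16). Enoph1 and Apip, both of methionine salvage, changed by -0.87 and 1.29, and Arg2, the mitochondrial arginase that supplies ornithine, by 1.93. After median-of-ratios scaling, 6 further one-carbon genes rose and 11 fell, and the counts were 1 and 7 for the methyl cycle, 5 and 11 for purines, 5 and 12 for pyrimidines and 6 and 10 for polyamines, where 37.1% of all genes rose and 44.0% fell. The SD given with these levels is that of 2 libraries.

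In Cct5 KD as deposited, a few enzymes fell steeply against a general rise in FPKM. Summed FPKM was itself higher, at 749001 and 747293 in Cct5 KD, against 496507 and 497663 in Cct5 KD Ctr. A rise as deposited therefore need not mean higher expression. Among the 36 enzymes, 15 rose, 18 fell and 3 did not pass, where of the 14179 genes tested 78.0% rose and 11.3% fell. The median log2 change was -0.09 for the enzymes and 0.68 for all genes tested. At least 2-fold falls numbered 6 (Tdh, Gldc, Shmt1, Hprt, Dhodh and Srm), against 2.17% of all genes, and no enzyme rose that far, against 31.2% of all genes. Both Cct5 KD libraries lay below both controls for 19 enzymes, above both for 15 and overlapped them for 2, Ppat and Impdh2, against 13.3% below and 81.0% above among all genes tested. After median-of-ratios scaling, which puts the median gene at -0.05, 32 fell, none rose and 4 did not pass (median -0.91), where 43.7% of all genes fell and 37.7% rose. Scaled to a common FPKM total, 30 fell and 4 rose, where 31.9% of all genes fell and 50.5% rose. Beside these counts, the summed FPKM of the pluripotency markers was 2297 to 2303 in Cct5 KD, against 4675 to 4723 in Cct5 KD Ctr, and that of the trophoblast genes 242 to 244 in Cct5 KD, against 26.6 to 27.8 in Cct5 KD Ctr. Dppa5a, with a mean of 1250 FPKM in Cct5 KD (65.4% of its control), made up most of the pluripotency sum. As deposited, 9 of the 10 pluripotency markers fell, Zfp42 the farthest (18.9% of its control), and 1 rose, Klf4. Krt8 and Krt18, with means of 122 and 117 FPKM in Cct5 KD, made up nearly all of the trophoblast sum (6 genes listed). Their remainder was 2.05% and 3.49% of these means, and both fell in it after median-of-ratios scaling (log2 changes -0.30 and -0.45). The rise of this sum therefore lay in the multiple of the Cct7 KD values. Eomes was lower (1.15 FPKM in Cct5 KD, against 1.69 in Cct5 KD Ctr). The primitive endoderm genes summed to 32.6 to 33.2 FPKM in Cct5 KD, against 15.3 to 15.5 in Cct5 KD Ctr. Most of that sum was Col4a1, with means of 20.5 FPKM in Cct5 KD and 10.3 in Cct5 KD Ctr. The 5 fibroblast genes listed here, with Col3a1 in place of Postn, summed to 17.2 to 17.9 FPKM in Cct5 KD, against 10.4 to 11.0 in Cct5 KD Ctr. In the scaled remainder 9 of the 10 pluripotency markers fell and 1 did not pass. Both primitive endoderm genes tested there fell, and 1 fibroblast gene fell and 1 rose, where 42.8% of all genes fell and 42.1% rose.

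The remainder of Cct5 KD, scaled in the same way, could be tested for 35 of the 36, since Gcat was under the filter. There 30 fell, 4 rose (Psph, Mthfd1, Prps1 and Paics) and 1 did not pass (Shmt2), with a median of -0.78, where 42.8% of all genes fell and 42.1% rose with a median of -0.01. The share of an enzyme's Cct5 KD value that stood in the remainder was between 12.6% (Tyms) and 40.2% (Prps1). The plot of the Cct5 KD changes sets the 3 readings side by side.

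**Figure D4:**
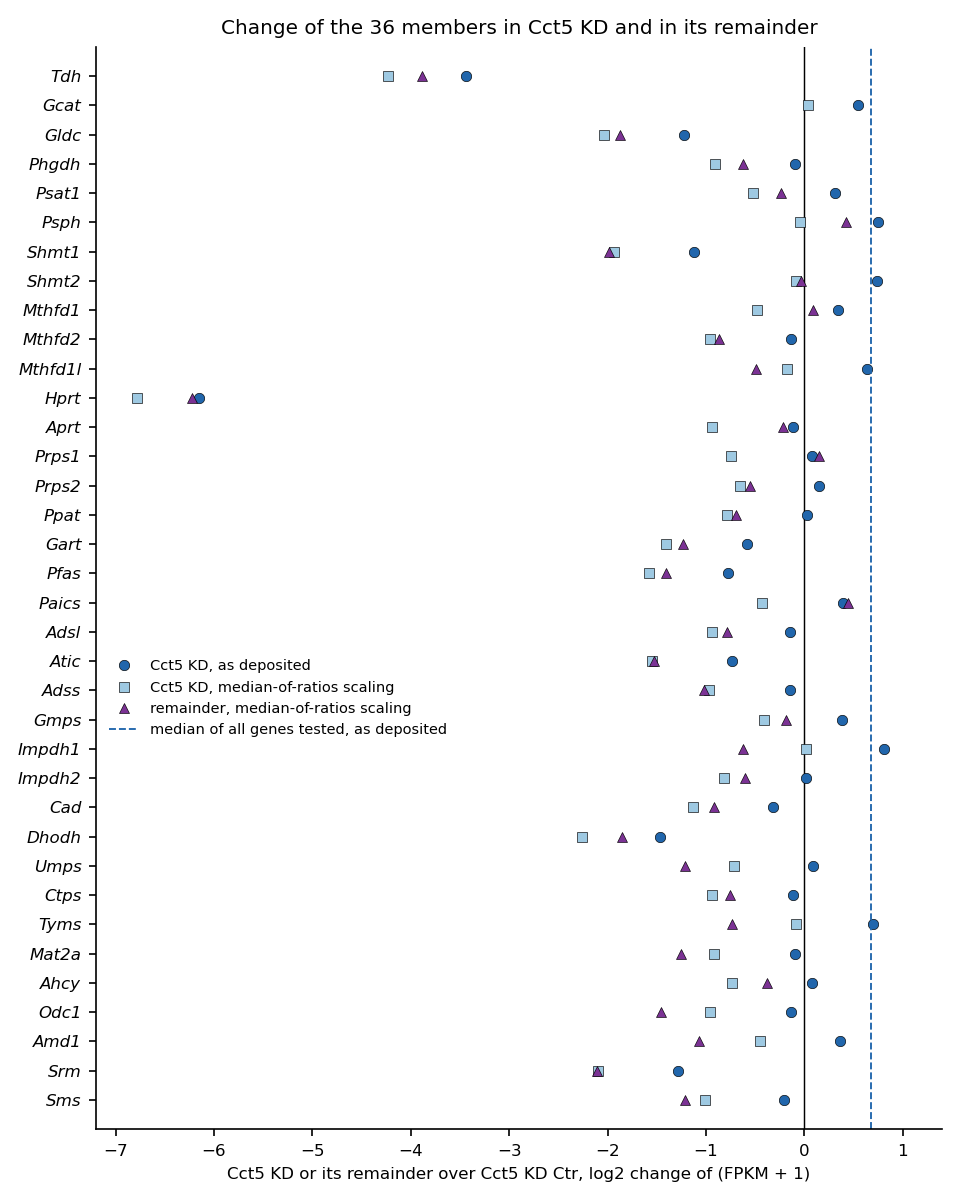
Log2 change of FPKM + 1 over Cct5 KD Ctr for the 36 enzymes in Cct5 KD as deposited (circles), in Cct5 KD after median-of-ratios scaling (squares) and in the remainder after the same scaling (triangles, 35 enzymes). The dashed line is the median of all genes tested as deposited (0.68); Hprt, Tdh, Srm, Shmt1, Gldc and Dhodh lie left of -1 on all 3 readings, and Psph, Mthfd1, Prps1 and Paics are the triangles right of 0.

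By member, Tdh had 11.4 and 12.3 FPKM in Cct5 KD, against 138 and 140.2 FPKM in Cct5 KD Ctr (log2 change -3.44, SE 0.039, adjusted p = 2.1e-07 by limma). Its remainder was 2.92 and 3.12 FPKM before scaling, with a log2 change of -3.89 after median-of-ratios scaling. Hprt had 1.44 and 1.13 FPKM in Cct5 KD, against 163 and 159 FPKM in Cct5 KD Ctr (log2 change -6.15, SE 0.068, adjusted p = 2.0e-07 by limma). The remainder of Hprt was 0.180 and 0.249 FPKM before scaling, with a log2 change of -6.22 after it. In both genes every knockdown value was far below every control value. Gldc had 46.5 and 46.4 FPKM in Cct5 KD, against 109 and 110.1 FPKM in Cct5 KD Ctr, and its log2 change was -1.22 as deposited and -1.88 in the remainder. Shmt1 had 38.4 and 39.3 FPKM in Cct5 KD, against 84.9 and 86.2 FPKM in Cct5 KD Ctr, with log2 changes of -1.12 and -1.99 on the same 2 readings. These 2 sources of one-carbon units were thus lower on either reading, while Shmt2, with 96.1 and 95.2 FPKM in Cct5 KD, against 56.3 and 57.6 FPKM in Cct5 KD Ctr, changed by 0.74 as deposited and -0.03 in the remainder. Srm had 34.9 and 36.2 FPKM in Cct5 KD, against 86.4 and 89.1 FPKM in Cct5 KD Ctr, with log2 changes of -1.28 as deposited and -2.11 in the remainder. Dhodh had 14.4 and 13.5 FPKM in Cct5 KD, against 39.0 and 41.6 FPKM in Cct5 KD Ctr, with log2 changes of -1.47 and -1.85. Each of these falls passed the test on both readings, with adjusted p by limma at or below 1.8e-06. In the remainder, Hprt (mean 0.215 FPKM before scaling) entered that test through the controls alone.

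Ratios within a library, which no scaling moves, separated the groups here as well. Shmt2 over Shmt1 was 2.50 and 2.42 in Cct5 KD and 2.79 and 2.67 in its remainder, against 0.664 and 0.668 in Cct5 KD Ctr. Srm over Sms was 1.13 and 1.21 in Cct5 KD and 1.30 and 1.36 in the remainder, against 2.44 and 2.52 in Cct5 KD Ctr. Odc1 over Oaz2 was 1.32 and 1.36 in Cct5 KD and 0.879 and 0.869 in the remainder, against 4.14 and 4.17 in Cct5 KD Ctr. All 3 ratios lay on the same side of the controls in the remainder as in Cct5 KD. Of all 10 ratios formed, 7 did so, Gldc over Shmt2, Adsl over Gart and both Hprt ratios among them, and 3 did not. Impdh1 was 11.4% and 11.3% of the Impdh pair in Cct5 KD and 6.23% and 6.51% in the remainder, against 6.62% and 6.83% in Cct5 KD Ctr. Mthfd1l over Mthfd1 was 0.360 and 0.351 in Cct5 KD but 0.191 and 0.186 in the remainder, against 0.289 and 0.286 in Cct5 KD Ctr. Prps2 was 28.0% and 26.8% of the Prps pair in Cct5 KD and 17.9% and 17.4% in the remainder, against 26.3% and 26.5% in Cct5 KD Ctr.

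For purine synthesis the 3 readings of Cct5 KD differed. As deposited, Gart, Pfas, Adsl and Atic fell, Paics rose and Ppat did not pass. All 6 fell once libraries were scaled by median of ratios, where 43.7% of all genes fell. In the remainder 5 fell and Paics was higher (0.44, adjusted p = 4.5e-06 by limma), where 42.8% of all genes fell and 42.1% rose. Paics had 332 and 331 FPKM in Cct5 KD, against 252 and 251 FPKM in Cct5 KD Ctr, and 131 and 131 FPKM, before scaling, in the remainder. Gart had 108 and 112 FPKM in Cct5 KD, against 165 and 166 FPKM in Cct5 KD Ctr, and its log2 change was -0.58 as deposited and -1.23 in the remainder. Atic had 63.7 and 63.8 FPKM in Cct5 KD, against 105 and 108 FPKM in Cct5 KD Ctr, with -0.73 as deposited and -1.53 in the remainder. Paics is therefore the exception on this route in the remainder, and its level there was 39.5% of its Cct5 KD value.

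Tyms and Impdh1, the 2 enzymes that rose in Cct7 KD on each scaling, did not do so in the remainder. Tyms had 22.4 and 21.8 FPKM in Cct5 KD, against 12.9 and 13.5 FPKM in Cct5 KD Ctr (log2 change 0.70, SE 0.038, adjusted p = 1.1e-05 by limma), but was at -0.08 after scaling and -0.73 in the remainder. Impdh1 had 31.6 and 30.6 FPKM in Cct5 KD, against 17.1 and 17.6 FPKM in Cct5 KD Ctr (log2 change 0.81, SE 0.033, adjusted p = 3.7e-06 by limma), and was at 0.02 after scaling and -0.62 in the remainder. Amd1, which did not pass in Cct7 KD, had 83.2 and 79.3 FPKM in Cct5 KD, against 63.8 and 61.6 FPKM in Cct5 KD Ctr (log2 change 0.37, SE 0.033, adjusted p = 1.1e-04 by limma) and was at -1.07 in the remainder. Of the 35 enzymes tested in both, 29 had the same sign in scaled Cct7 KD and in the remainder. The remainder was itself formed by subtracting a multiple of the Cct7 KD values. Of the enzymes tested, 33 of 36 were below 0 in scaled Cct7 KD and 31 of 35 in the remainder. Agreement of most signs follows from these counts alone, and the share over all genes was not counted. Whether an enzyme's change differed between the 2 knockdowns was not tested, because the Cct5 KD values contain the Cct7 KD values.

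No enzyme passed the test between the 2 empty-vector controls. Comparing Cct5 KD Ctr with Cct7 KD Ctr, limma called 0 of the 36 and 0 of 12762 genes (0%) at an adjusted p under 0.05, with 2296 genes, 11 of them enzymes listed here, at an unadjusted p under 0.05. The largest difference among the 36 was that of Mat2a, with 151 and 147 FPKM in Cct5 KD Ctr, against 120.4 and 122 FPKM in Cct7 KD Ctr (log2 difference 0.30, adjusted p = 0.071 by limma). Tdh differed by 0.22 in the same direction. The changes of Tdh, Gldc, Shmt1, Hprt, Dhodh and Srm in either knockdown were larger than any difference between the controls among the 36, while the called changes of Psat1, Psph, Shmt2, Mthfd1l, Umps and Mat2a in Cct7 KD were smaller than that of Mat2a between the controls. Levels of the 2 controls come from separate tables.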

How the data were processed

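The deposited values are FPKM, calculated by the authors, with each knockdown and its control in a table of their own. Per the submitters' processing notes, HTSeq and the mm10 assembly were used. The aligner was not given in the sources used here, nor were annotation, gene lengths and strand setting. Per the labels' protocols, poly(A) RNA with an integrity number above 7.0 was made into dUTP-marked libraries and read as 150 bp pairs. IDs listed more than once (8 and 6) were left out, and symbols and coordinates came from GENCODE for GRCm38.

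No counts were at hand, so the planned count model gave way to limma 3.58.1 (eBayes with a mean trend, R 4.3.3) on log2(FPKM + 1), with no further scaling and genes of a mean of at least 1 FPKM. Each fit held 4 libraries, p-values were adjusted by Benjamini-Hochberg over all genes tested, and the script was tested on simulated data. Because FPKM is relative to a library's total, a change in a few abundant genes moves all others, and scaling is therefore an alternative (below). Depth came from the step of low FPKM values (whole within 0.05 fragments for at least 95% of values). In the deposited libraries with a depth, 1 fragment on 1 kb equals 0.0183 to 0.0530 FPKM.

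The 36 enzymes, the further pathway lists, the markers and the ratios were chosen with earlier results of these data known. Named genes were all 36 enzymes, both hairpin targets, the 2 largest rises and falls past the test in each further list, 3 neighbours on each side of Hprt, and near-identical copies. Promoter windows are from RefSeq (GRCm38.p6).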

Additional observations from a re-analysis of the deposited data

Results flagged for a closer look

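For 8 enzymes both Cct5 KD libraries lay above both of their controls as deposited, while both Cct7 KD libraries lay below theirs, so that the log2 changes had opposite signs. Among all genes tested, 81.0% lay above both controls in Cct5 KD and 36.5% below both in Cct7 KD. The share of genes doing both was not counted, so the 8 are not set apart from genes at large. The log2 change in Cct5 KD was 0.31 for Psat1 (-0.19 in Cct7 KD), 0.34 for Mthfd1 (-0.37), 0.08 for Prps1 (-0.88) and 0.15 for Prps2 (-0.32). It was 0.40 for Paics (-0.48 in Cct7 KD), 0.39 for Gmps (-0.12, which did not pass), 0.09 for Umps (-0.17) and 0.08 for Ahcy (-0.55). The differences themselves were not tested, because the Cct5 KD values contain the Cct7 KD values. After median-of-ratios scaling 0 of the 8 had opposite signs. In the remainder of Cct5 KD, Mthfd1 (0.09), Prps1 (0.15) and Paics (0.44) were still above Cct5 KD Ctr.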

How the results depend on the processing

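For Cct7 KD, median-of-ratios scaling left 2 rises, and a fold of at least 2 left 0 rises and 9 falls. For Cct5 KD, median-of-ratios scaling gave 0 rises and 32 falls, the remainder 4 and 30, a common FPKM total 4 and 30, and a fold of at least 2 gave 0 and 6. Leaving out 1 library gave 4 to 5 rises and 27 to 29 falls in Cct7 KD, 11 to 13 rises and 13 to 17 falls in Cct5 KD, and 0 to 1 differences between the controls; the 1, Mat2a, appeared without Cct7 KD Ctr replicate 1. Of the enzymes' calls, leaving out 1 library ended 0 to 2 in Cct7 KD (Psph, Umps) and 4 to 9 in Cct5 KD. No filter, a pseudocount of 0.1 and all 8 libraries in 1 fit moved no count of the 36 enzymes by over 1.5 times; with no filter, 4 further methyl-cycle genes rose in Cct7 KD, against 2 with it.

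Median-of-ratios scaling turned the sign in Cct7 KD of Psph (-0.12), Shmt2 (-0.081), Mthfd1l (-0.047), Amd1 (-0.19), Ahcyl1 (-0.15), Ccdc160 (-0.14) and Phf6 (-0.073). In Cct5 KD it turned Psat1 (-0.52), Psph (-0.044), Shmt2 (-0.080), Mthfd1 (-0.48), Mthfd1l (-0.17), Prps1 (-0.74), Prps2 (-0.65), Ppat (-0.78), Paics (-0.43), Gmps (-0.41), Impdh2 (-0.81), Umps (-0.72), Tyms (-0.080), Ahcy (-0.74), Amd1 (-0.45) and Cct7 (-0.72). The remainder turned Psat1 (-0.24), Shmt2 (-0.034), Mthfd1l (-0.49), Prps2 (-0.56), Ppat (-0.69), Gmps (-0.18), Impdh1 (-0.62), Impdh2 (-0.60), Umps (-1.21), Tyms (-0.73), Ahcy (-0.38) and Amd1 (-1.07). A common FPKM total turned Psat1 (-0.28), Mthfd1 (-0.24), Prps1 (-0.50), Prps2 (-0.42), Ppat (-0.54), Paics (-0.19), Gmps (-0.18), Impdh2 (-0.57), Umps (-0.48), Ahcy (-0.50), Amd1 (-0.21) and Cct7 (-0.48). By construction median-of-ratios scaling and a common FPKM total lower every Cct5 KD value against its control. That does not hold for the scaled remainder. Leaving out 1 library gave -0.018 to 0.15 for Ccdc160 in Cct7 KD, with a turn without Cct7 KD Ctr replicate 1 (-0.018) or Cct7 KD replicate 1 (-0.000888), and -0.0017 to 0.029 for Impdh2 in Cct5 KD, with a turn without Cct5 KD replicate 1.

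Same-numbered libraries did not deviate together (correlations -0.04 in Cct7 KD, -0.01 in Cct5 KD and 0.04 between the controls), so the numbers do not pair them. With the replicate number as a block, 5 rose and 28 fell in Cct7 KD, 15 rose and 19 fell in Cct5 KD, where Aprt also passed (adjusted p = 0.025 by limma), and 0 differed between the controls.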
